A study of Mus musculus with 14 samples.

Results

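The small molecule EPZ-5676, an inhibitor of the histone methyltransferase DOT1L, was set against its solvent DMSO in mouse CD8 T cells that had been stimulated and grown for 8 days. The comparison used 8 of the 14 libraries of the series. Their names give the animal, WT1 to WT4, and the condition, so that each of 4 animals contributed 1 EPZ-5676 library and 1 DMSO library. The result is described across the 12208 of 55486 genes in the count table that had enough counts to be tested.

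DOT1L methylates a lysine on the core of histone H3 and lays this mark over the bodies of actively transcribed genes. It works with partners of the MLL fusion proteins of leukaemia, for which EPZ-5676 (pinometostat), a compound that occupies the methyl donor pocket of the enzyme, was developed. CD8 T cells are the lymphocytes that kill infected and tumour cells. After stimulation they leave a quiescent, recirculating state and take up a programme of division, metabolism and cytotoxic granule production.

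The EPZ-5676 cells received the inhibitor every 2 days, and the DMSO cells received 0.1% DMSO on the same schedule. The treatment label gives the inhibitor's dose as 10 mM and the library names give 10 uM. The files do not settle which unit is right. Both groups have the genotype wt;wt;het at CreERT2, the floxed Dot1l allele and OT-I. They thus carry no Cre and no floxed allele, and every animal is heterozygous for the OT-I transgene, a single T cell receptor against an ovalbumin peptide. WT1 and WT2 are labelled female and WT3 and WT4 male, and no age is given. Cells were isolated as CD8 T cells and stimulated with antibodies to CD3 and CD28. The other 6 libraries come from 4-hydroxytamoxifen-treated cells labelled KO (het;hom;het) and WT (het;wt;het), 3 each, and are used below only for a side-by-side reading.

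Library totals ran from 11927364 to 18927634 counts in the EPZ-5676 group and from 8139437 to 20586093 in the DMSO group. Xist counts were found in the 4 libraries of the animals labelled female and Ddx3y counts in the 4 of those labelled male, apart from Xist at 0.125 CPM in the DMSO library of WT3. The first principal component held 45.4% of the variance and placed the EPZ-5676 libraries between -29.2 and -19.3 and the DMSO libraries between 18.7 and 27.4. On the second, with 19.4%, the DMSO library of WT3 stood apart at -26.2. That library was also the shallowest. Its genes lay further from the other 3 libraries of its group (SD over genes of 0.264 on the log2 scale) than those of any other library (0.199 to 0.215). Results are therefore given with and without WT3 where that animal changed a count or a call. None of 6 measures of library quality could pass the exact sign-change test over 4 pairs, whose smallest two-sided p is 0.125. The share of counts in protein coding genes was higher with EPZ-5676 in 4 of 4 pairs, at 98.2% ± 0.188 against 98.0% ± 0.260 with DMSO (SD, n = 4 each; exact p = 0.125, adjusted p = 0.5 over the 6 measures).

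**Figure D1:**
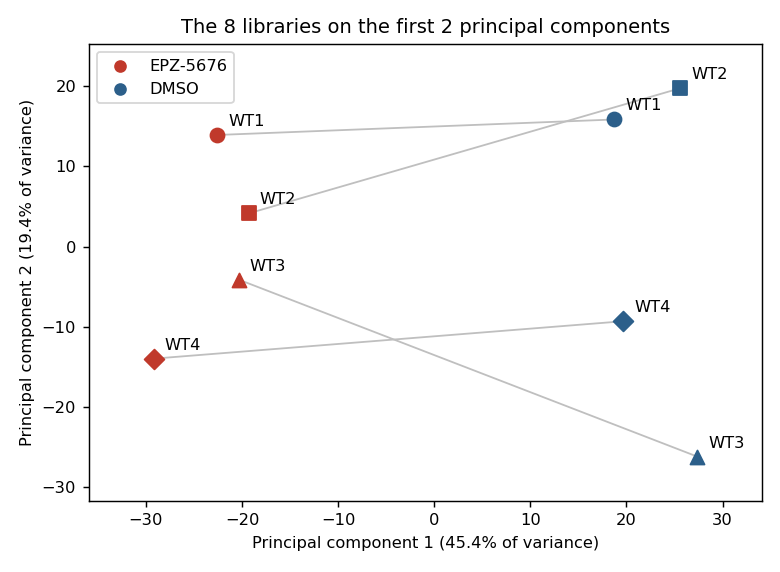
Each point is 1 library placed by the first 2 principal components of log2 CPM over the genes tested, coloured by treatment, shaped by animal and joined to the other library of the same animal. The EPZ-5676 libraries lie to the left of the DMSO libraries on the first component, and the DMSO library of WT3 lies lowest on the second, at -26.2.

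The labelled cell type was checked against its markers. All 8 genes of a list of CD8 and T cell receptor genes were measured, with a summed level of 2937 to 3257 CPM (read counts relative to the library total, scaled by edgeR's TMM factors) in the EPZ-5676 libraries and 4102 to 4497 CPM in the DMSO libraries. Of these 8 genes, 6 fell and 0 rose at an adjusted p under 0.05, against 11.2% and 14.7% of all genes tested. The counts that follow are to be read beside these shares. Lists of markers of other cells were mixed. Of 15 B cell markers, 2 of 3 tested fell, Ms4a1 had no count, and the summed level, almost all of it Ighm, was 433 to 564 CPM with EPZ-5676 and 1056 to 1314 CPM with DMSO. Of 15 myeloid and dendritic cell markers, 7 had no count, among them Csf1r and Adgre1, Lyz2 had 1 count in the 8 libraries together, and 2 of 4 tested rose, with a sum of 15.2 to 17.4 CPM with EPZ-5676 and 8.56 to 14.2 CPM with DMSO. H2-Ab1, an MHC class II chain of that list, had a log2 fold change of 1.83. Of 8 mast cell and basophil markers, 4 had no count, and Kit made up most of a sum of 50.6 to 68.9 CPM with EPZ-5676 and 15.9 to 27.0 CPM with DMSO. Of 12 erythroid and platelet markers, 6 had no count, and Car2, a carbonic anhydrase, had a log2 fold change of 1.97 within a sum of 9.38 to 14.0 CPM with EPZ-5676 and 4.37 to 7.48 CPM with DMSO. Of 7 markers of CD4 and regulatory T cells, 1 of 6 tested rose and 4 fell, with a sum of 296 to 332 CPM with EPZ-5676 and 466 to 539 CPM with DMSO. Cd4 was measured at 0.895 to 1.88 CPM with EPZ-5676 and at 2.72 to 3.86 CPM with DMSO, and Foxp3, the factor of regulatory T cells, had a log2 fold change of -1.25. Of 9 measured markers of innate-like and gamma delta T cells, 0 of 4 tested rose and 2 fell. Trdc, the delta chain constant gene, stood at 222 to 251 CPM with EPZ-5676 and at 201 to 231 CPM with DMSO, and the sum was 252 to 283 CPM with EPZ-5676 and 245 to 264 CPM with DMSO. Ncr1, a marker of natural killer (NK) cells, had 26 counts over the EPZ-5676 libraries and 0 over the DMSO libraries and was not tested. Klra8, Klra4 and Klra9, of the same list, had at most 3 counts in either group. H2-Ab1, Car2, Foxp3 and Trdc are named as expressed members of these lists and were chosen after their values were seen. The part of other cells in the results was not tested.

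Treatment moved a large part of the transcriptome by small amounts. With the animal as a block, edgeR's quasi-likelihood test called 1792 genes higher with EPZ-5676 (14.7% of the 12208 tested) and 1371 lower (11.2%) at an adjusted p under 0.05, while the median log2 fold change of all genes tested was -0.01. The called genes moved the same way in all 4 animals in 1777 of the 1792 cases and in 1337 of the 1371. The calls were made from these same animals, so this agreement is not separate support for them. Most changes were under 1.5-fold: 58.3% of the higher and 82.4% of the lower calls. Changes of at least 2-fold were mostly upward, with 439 genes higher (3.6% of those tested) and 70 lower (0.573%). The median log2 fold change was 0.47 among the higher calls and -0.35 among the lower ones. Single animals weighed on these counts. Without WT3, 2408 genes were called higher (19.7% of those tested) and 2256 lower (18.5%), and 3095 of the 3163 calls of the full set remained. The counts fell to 918 higher and 605 lower without WT1, and to 839 higher and 501 lower without WT4. Without the animal as a block, 1449 genes were called higher (11.9%) and 1014 lower (8.31%).

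**Figure D2:**
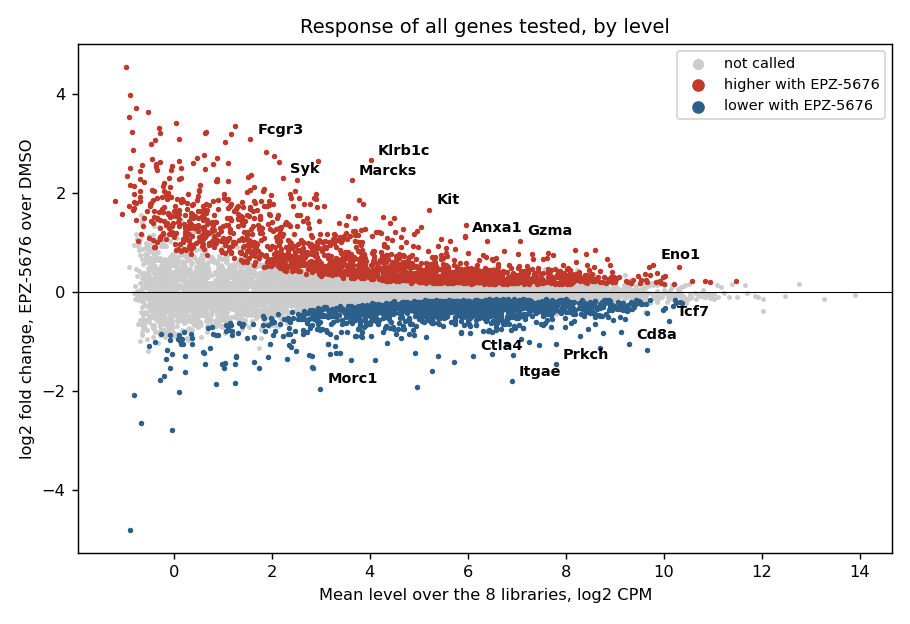
Each point is 1 of the 12208 genes tested, placed by its mean level over the 8 libraries (log2 CPM) and by its log2 fold change, EPZ-5676 over DMSO; coloured points passed an adjusted p under 0.05. The 439 genes higher by at least 2-fold lie mostly at low levels, while Cd8a, Prkch and Itgae are well expressed genes that fell.

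Pairing by animal changed which genes passed. Deviations of the 2 libraries of an animal from their group means correlated over genes at 0.554, 0.134, 0.0324 and 0.470 in WT1 to WT4. The highest correlation of the EPZ-5676 library with the DMSO library of another animal was 0.18, 0.116, 0.137 and 0.112. In WT3 this was above the value of its own pair, and in WT2 it was close to it. The block added 753 calls and lost 53, with 2410 called both ways. Slc15a2 and Upp1 were picked from genes that only the fit with the block called and that moved the same way in all 4 animals. Both traits were thus conditions of the choice. Slc15a2 stood in WT1 to WT4 at 20.6, 15.7, 2.56 and 5.11 CPM with EPZ-5676 and at 26, 21.8, 4.49 and 9.25 CPM with DMSO. Slc15a2, a peptide transporter, differed more between animals than between treatments, with overlapping groups and a lower EPZ-5676 level in each animal. For Slc15a2 the log2 fold change was -0.53 ± 0.11 (adjusted p = 0.0099). The level of Upp1 was 7.12, 4.98, 8.42 and 7.95 CPM with EPZ-5676, against 3.16, 1.74, 5.11 and 5.76 CPM with DMSO. Upp1, uridine phosphorylase, was higher with EPZ-5676 in each animal although its level in WT2 was low in both groups. The Upp1 log2 fold change was 0.92 ± 0.18 (adjusted p = 0.0076). Without the block the adjusted p was 0.56 for Slc15a2 and 0.053 for Upp1. A call was lost for Upp1 without WT1 (adjusted p = 0.0591).

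Dot1l itself, the target of the inhibitor, is not deleted in these cells. Dot1l had 112, 101, 87.5 and 109.6 CPM in the EPZ-5676 libraries of WT1 to WT4, against 93.6, 81.5, 96.1 and 96 CPM in the DMSO libraries. The ranges overlapped, and WT3 was the 1 animal in which the level was lower with EPZ-5676. Dot1l differed on the log2 scale by 0.16 ± 0.08 (SE; adjusted p = 0.17). Without WT3 the log2 fold change was 0.24, with an adjusted p of 0.0021. In a list of 14 DOT1L partners and elongation factors, 2 rose (14.3%, against 14.7% of all genes) and 1 fell (7.14%, against 11.2%). Aff1, a scaffold of the super elongation complex and an MLL fusion partner, had 66.9 ± 9.77 CPM with EPZ-5676 and 95.1 ± 12.1 CPM with DMSO (log2 fold change -0.51 ± 0.08). Cdk9, the kinase of elongation factor P-TEFb, had 124 ± 5.7 CPM with EPZ-5676 and 107 ± 2.92 CPM with DMSO (log2 fold change 0.21 ± 0.05, adjusted p = 0.021). The counts of this list without WT1, WT2, WT3 and WT4 were 0, 1, 3 and 0 higher and 1, 2, 2 and 1 lower. The test was no longer passed for Cdk9 without WT1, WT2 or WT4 (adjusted p between 0.0636 and 0.105). Cdk9 also lost its call with no low-count filter (adjusted p = 0.0659).

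The smallest p-values belonged to a short set of surface, kinase and adaptor genes. Genes named here and below for a small p, a large change or a large CPM difference had to show no overlap between the groups. Of all genes tested, 24.2% showed none. Cd8a stood in WT1 to WT4 at 376, 411, 409 and 425 CPM with EPZ-5676 and at 816, 870.1, 870.3 and 829.9 CPM with DMSO. Cd8a encodes the alpha chain of the CD8 co-receptor, and the 2 groups were separated by a gap almost as large as the EPZ-5676 level itself. For Cd8a the log2 fold change was -1.06 ± 0.05 (adjusted p = 6.8e-05). In bulk RNA, fewer cells that express a gene and less RNA per cell cannot be told apart. The level of Cd8b1 was 248, 274, 261 and 253 CPM with EPZ-5676, against 567, 649, 491 and 588 CPM with DMSO. The beta chain of the co-receptor thus fell alongside the alpha chain in each animal. The Cd8b1 log2 fold change was -1.14 ± 0.07 (adjusted p = 9.7e-05). Prkch had 111, 117, 136 and 108 CPM in the EPZ-5676 libraries of WT1 to WT4, against 309.9, 347, 319 and 324 CPM in the DMSO libraries. Prkch encodes protein kinase C eta, and each EPZ-5676 library lay below the lowest DMSO library. Prkch differed on the log2 scale by -1.46 ± 0.07 (SE; adjusted p = 6.8e-05). Itgae stood in WT1 to WT4 at 51.6, 59.9, 47.2 and 51.1 CPM with EPZ-5676 and at 159.6, 189.8, 237 and 156 CPM with DMSO. Itgae encodes CD103, the integrin that binds E-cadherin on epithelia, and its highest DMSO value belonged to WT3. For Itgae the log2 fold change was -1.81 ± 0.12 (adjusted p = 0.00015).

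On the other side stood genes that rose, from DMSO levels that were low for Klrb1c and Marcks and moderate for Kit and Anxa1. The level of Klrb1c was 31.9, 27.5, 20.4 and 32.2 CPM with EPZ-5676, against 5.3, 3.32, 3.74 and 5.41 CPM with DMSO. Klrb1c encodes the NK cell receptor NK1.1, and its lowest EPZ-5676 library was well above its highest DMSO library. The Klrb1c log2 fold change was 2.66 ± 0.11 (adjusted p = 6.8e-05). Marcks had 23.8, 14.2, 23.8 and 20.1 CPM in the EPZ-5676 libraries of WT1 to WT4, against 4.72, 3.82, 4.49 and 3.93 CPM in the DMSO libraries. Marcks, a substrate of protein kinase C at the membrane, separated the groups with no overlap. Marcks differed on the log2 scale by 2.25 ± 0.11 (SE; adjusted p = 6.8e-05). Kit stood in WT1 to WT4 at 49.3, 53.9, 66.1 and 55.3 CPM with EPZ-5676 and at 15.3, 15.9, 25.9 and 15.5 CPM with DMSO. Kit is the receptor of stem cell factor, and WT3 had its highest level in both groups. For Kit the log2 fold change was 1.66 ± 0.08 (adjusted p = 6.8e-05). The level of Anxa1 was 83.9, 86, 88.7 and 75.8 CPM with EPZ-5676, against 38.9, 40.8, 39 and 37.1 CPM with DMSO. Anxa1, a phospholipid-binding annexin, differed by a nearly equal factor in every animal. The Anxa1 log2 fold change was 1.10 ± 0.05 (adjusted p = 6.8e-05).

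In what follows ± after a mean is the SD over the 4 libraries of a group, and ± after a log2 fold change is its SE. The adjusted p was under 0.01 where none is given. Counts of called list members are to be read beside the shares over all genes tested, 14.7% higher and 11.2% lower. Other genes with the smallest p-values or the largest changes among those of at least 5 CPM in 1 group followed the same split. Ifitm3, an interferon-induced membrane protein, had 46.8 ± 4.48 CPM with EPZ-5676 and 18.8 ± 3.13 CPM with DMSO (log2 fold change 1.31 ± 0.07). Uchl1, a deubiquitinase known from neurons, had 28.5 ± 1.83 CPM with EPZ-5676 and 10 ± 1.49 CPM with DMSO (log2 fold change 1.51 ± 0.08). Tgm2, a transglutaminase, had 13.3 ± 2.61 CPM with EPZ-5676 and 2.17 ± 0.579 CPM with DMSO (log2 fold change 2.64 ± 0.18). Maf, a transcription factor of cytokine programmes in T cells, had 9.48 ± 1.05 CPM with EPZ-5676 and 1.98 ± 0.336 CPM with DMSO (log2 fold change 2.26 ± 0.15). No overlap between the groups was a condition for naming these 4 genes. Among the genes that fell, Ncf1, a subunit of the phagocyte NADPH oxidase, had 19.6 ± 7.36 CPM with EPZ-5676 and 58 ± 12.9 CPM with DMSO (log2 fold change -1.59 ± 0.08). Slc28a2b, of the concentrative nucleoside transporters, had 12.9 ± 1.19 CPM with EPZ-5676 and 49.3 ± 10.7 CPM with DMSO (log2 fold change -1.92 ± 0.14). Zfp683, which encodes the resident-memory transcription factor Hobit, had 6.86 ± 1.03 CPM with EPZ-5676 and 17.7 ± 3.18 CPM with DMSO (log2 fold change -1.37 ± 0.12). Crlf3, a cytokine receptor-like factor, had 92.6 ± 6.04 CPM with EPZ-5676 and 179 ± 11.8 CPM with DMSO (log2 fold change -0.95 ± 0.05). Morc1, known from the male germ line, had 3.22 ± 0.9 CPM with EPZ-5676 and 12.7 ± 2.55 CPM with DMSO (log2 fold change -1.96 ± 0.12). The condition of no overlap applied to these 5 genes too.

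**Figure D3:**
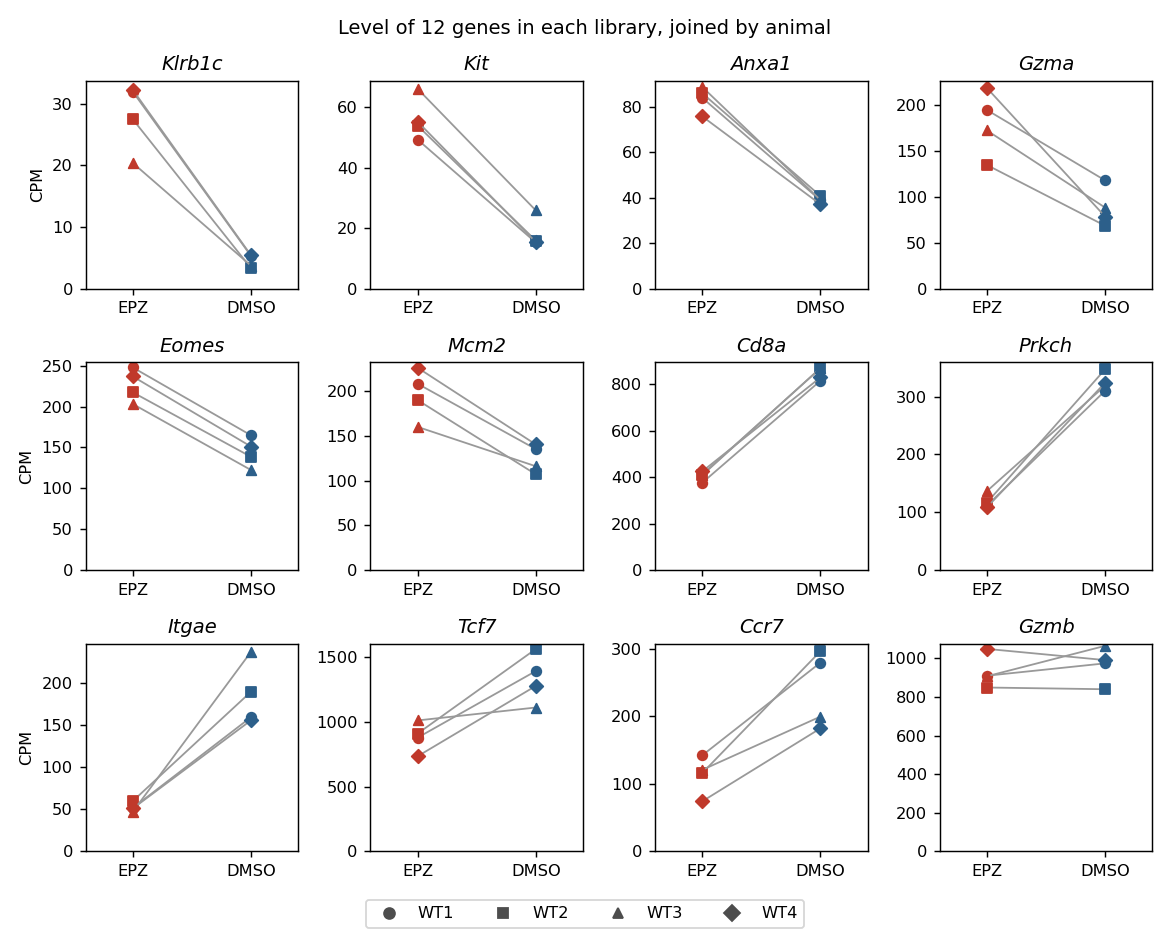
Level of 12 genes in CPM in each library, EPZ-5676 on the left and DMSO on the right of each panel, with points of 1 animal joined and shaped by animal. Klrb1c, Kit, Anxa1, Gzma, Eomes and Mcm2 are higher and Cd8a, Prkch, Itgae, Tcf7 and Ccr7 lower with EPZ-5676 in all 4 animals; Gzmb overlaps.

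The windows before the start sites of genes that fell by at least 2-fold held few CG dinucleotides. Windows of 250 bases upstream were taken from RefSeq (GRCm38.p6), the first listed for each gene, for 9213 of the genes tested. At most 5 CG were found in 57.9% of the windows of 38 genes lower by at least 2-fold and in 22.9% of those of 336 genes higher by at least 2-fold, against 13.0% of the 9213. The median number of CG was 4, 14.5 and 16 in these 3 sets. Of all 27025 windows, 49.5% held at most 5 CG. The GC box, GGGCGG on either strand, was in 21.1% of the windows of the lower set and in 56.0% of those of the higher set, against 59.9% of those of all genes tested and 32.9% of all 27025 windows in the table. These are descriptions with no test, and the genes were chosen by the same contrast. The 4 other motifs searched on both strands, the cores GGAAGT (ETS) and TGTGGT (RUNX), TGANTCA (AP-1) and, for the TATA box, TATAAA, were in 15.8%, 2.63%, 5.26% and 13.2% of the 38 windows against 24.7%, 11.0%, 3.96% and 6.05% of those of genes tested. In the higher set they were in 15.5%, 13.4%, 5.06% and 7.14%. The shares of the lower set rest on 6, 1, 2 and 5 windows. Windows of 2 genes that rose and 2 that fell are printed to show the range, 5′ to 3′ on the gene's strand, with CG dinucleotides and GC boxes in capitals (overlapping GC boxes are joined).
Klrb1c, chr6:128788642-128788891, minus strand: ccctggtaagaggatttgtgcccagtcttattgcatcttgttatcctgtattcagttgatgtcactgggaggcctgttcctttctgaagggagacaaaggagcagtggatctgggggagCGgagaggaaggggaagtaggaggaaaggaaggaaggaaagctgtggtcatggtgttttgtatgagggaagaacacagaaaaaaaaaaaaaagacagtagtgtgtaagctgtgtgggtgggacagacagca
Kctd12, chr14:102982638-102982887, minus strand: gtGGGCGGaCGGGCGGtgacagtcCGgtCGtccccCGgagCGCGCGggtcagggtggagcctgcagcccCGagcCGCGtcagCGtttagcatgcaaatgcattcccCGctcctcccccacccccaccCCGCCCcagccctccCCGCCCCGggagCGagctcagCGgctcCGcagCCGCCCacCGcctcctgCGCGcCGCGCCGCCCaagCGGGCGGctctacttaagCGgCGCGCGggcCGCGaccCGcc
Cd8a, chr6:71373177-71373426, plus strand: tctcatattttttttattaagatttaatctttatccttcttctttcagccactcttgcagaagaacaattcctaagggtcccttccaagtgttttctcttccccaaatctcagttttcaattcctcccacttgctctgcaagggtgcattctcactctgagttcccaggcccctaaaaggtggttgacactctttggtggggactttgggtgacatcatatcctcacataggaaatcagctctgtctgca
Slc28a2b, chr2:122484691-122484940, plus strand: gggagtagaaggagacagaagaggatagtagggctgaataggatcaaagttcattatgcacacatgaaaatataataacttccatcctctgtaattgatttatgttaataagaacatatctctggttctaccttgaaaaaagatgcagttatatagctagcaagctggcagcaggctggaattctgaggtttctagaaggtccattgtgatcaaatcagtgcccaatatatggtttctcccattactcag
The Kctd12 window, of a potassium channel tetramerisation domain protein, holds 36 CG and 7 GC boxes. The Klrb1c window holds 1 CG and those of Cd8a and Slc28a2b none. In a wider window, from 250 bases before to 50 after the start and averaged over a gene's listed windows, coding genes were split into 5 equal bins by the number of CG, and 1.02% of the lowest bin and 0.0566% of the highest fell by at least 2-fold, while 6.33% and 4.19% rose by at least 2-fold.

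Genes of the T cell receptor pathway fell more often than they rose. Of 32 tested members, 14 fell and 2 rose, against 11.2% and 14.7% of all genes, with a median log2 fold change of -0.15. The members that fell without WT1, WT2, WT3 and WT4 numbered 7, 14, 22 and 7. The lower members included the CD8 chains, adaptors and attenuators. Fyb, the adaptor ADAP that couples the receptor to integrins, had 219 ± 15.7 CPM with EPZ-5676 and 405 ± 11 CPM with DMSO (log2 fold change -0.89 ± 0.05). Cd6, a co-receptor that binds CD166, had 144 ± 7.35 CPM with EPZ-5676 and 301 ± 21.8 CPM with DMSO (log2 fold change -1.06 ± 0.07). Lcp2, the adaptor SLP-76, had a log2 fold change of 0.19 (adjusted p = 0.039). The CD3 chains moved little: Cd3d had 436 ± 38.6 CPM with EPZ-5676 and 527 ± 48.1 CPM with DMSO (log2 fold change -0.27 ± 0.05), and Cd247, the zeta chain, had 204 ± 7.02 CPM with EPZ-5676 and 251 ± 14.9 CPM with DMSO (log2 fold change -0.30 ± 0.06). In a list of 10 protein kinase C and D genes, 4 fell, none rose at an adjusted p under 0.05, and the median was -0.12. Prkca fell next to Prkch, with 82.9 ± 6.63 CPM with EPZ-5676 and 129 ± 8.77 CPM with DMSO (log2 fold change -0.64 ± 0.05). The 4 lower calls numbered 3, 3, 5 and 3 without WT1, WT2, WT3 and WT4. With 1 animal or the block left out, calls were lost for Lcp2 without WT1, WT2 or WT4, for Cd3d without WT4, for Cd247 without WT1 or WT4 (adjusted p between 0.0691 and 0.148). Lcp2 also lost its call with DESeq2, RLE factors, thinned counts and no low-count filter (adjusted p between 0.0501 and 0.0902).

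Naive and memory genes had the lowest median of the 48 lists, -0.43. Of 25 tested, 18 fell and 0 rose. Tcf7 had 876, 907, 1008 and 732 CPM in the EPZ-5676 libraries of WT1 to WT4, against 1388, 1558, 1108 and 1274 CPM in the DMSO libraries. Tcf7 encodes TCF-1, the factor that keeps T cells in a stem-like state, and WT3 showed a much smaller difference than the other animals. Tcf7 differed on the log2 scale by -0.60 ± 0.11 (SE; adjusted p = 0.0056). Without WT3 it was -0.76. Ccr7 stood in WT1 to WT4 at 142, 116, 121 and 74.2 CPM with EPZ-5676 and at 279.7, 297, 199.8 and 182 CPM with DMSO. Ccr7, the receptor that guides T cells into lymph nodes, was lower with EPZ-5676 in each animal, with no overlap. For Ccr7 the log2 fold change was -1.09 ± 0.10 (adjusted p = 0.00044). Rasgrp2, an activator of Rap1, had 259 ± 12.5 CPM with EPZ-5676 and 440.5 ± 39 CPM with DMSO (log2 fold change -0.76 ± 0.07). Il6st, the gp130 signalling chain of the IL-6 receptor, had 47.5 ± 4.31 CPM with EPZ-5676 and 84.4 ± 8.62 CPM with DMSO (log2 fold change -0.83 ± 0.05). The count of lower members was 11, 15, 20 and 10 without WT1, WT2, WT3 and WT4. The median over the list was -0.43, -0.52, -0.16 and -0.59 in WT1 to WT4. The GIMAP GTPases, which support lymphocyte survival, fell in 6 of 8 cases with a median of -0.23, and in 1, 2, 7 and 1 cases without WT1 to WT4 in turn. Gimap7 had 92.7 ± 16.3 CPM with EPZ-5676 and 133 ± 12.8 CPM with DMSO (log2 fold change -0.53 ± 0.06). Calls that did not hold when an animal or the block was left out were those for Tcf7 without WT4 (adjusted p = 0.051).

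Effector and memory transcription factors split, with 9 of 19 higher and 4 lower. The level of Eomes was 248, 217, 203 and 237 CPM with EPZ-5676, against 165, 138, 122 and 151 CPM with DMSO. Eomes, a T-box factor of effector and memory CD8 cells, rose in each animal. The Eomes log2 fold change was 0.65 ± 0.05 (adjusted p = 0.00021). Id2, which blocks E proteins during effector differentiation, had 376 ± 31.3 CPM with EPZ-5676 and 209.7 ± 10.3 CPM with DMSO (log2 fold change 0.84 ± 0.05). Irf8 had 43.5 ± 12.3 CPM with EPZ-5676 and 29.3 ± 7.65 CPM with DMSO (log2 fold change 0.57 ± 0.06). Runx3, which establishes the CD8 lineage, had 142 ± 12.8 CPM with EPZ-5676 and 192 ± 21 CPM with DMSO (log2 fold change -0.43 ± 0.09). Stat4, which relays IL-12, had 105 ± 6.59 CPM with EPZ-5676 and 127 ± 5.1 CPM with DMSO (log2 fold change -0.27 ± 0.06, adjusted p = 0.014). Tbx21, which encodes the T-box factor T-bet, had 22 ± 3.55 CPM with EPZ-5676 and 22.9 ± 4.59 CPM with DMSO and did not pass the test (log2 fold change -0.06 ± 0.07, adjusted p = 0.56). Without WT1, WT2, WT3 and WT4 in turn, 9 members were called higher each time, whereas the lower ones numbered 1, 3, 5 and 1. Left-out animals or a missing block ended the call for Irf8 without the block, for Runx3 without WT1 or WT4, for Stat4 without WT1, WT2 or WT4 (adjusted p between 0.0546 and 0.102).

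Most genes of cytotoxic molecules rose, and Gzmb was among those that did not pass the test. Of 19 tested, 12 rose and 0 fell, with a median of 0.47; with WT1, WT2, WT3 and WT4 left out, 8, 10, 14 and 8 rose and 0, 0, 3 and 0 fell. Gzma had 194, 135, 172 and 218 CPM in the EPZ-5676 libraries of WT1 to WT4, against 118, 68.5, 88.2 and 78.5 CPM in the DMSO libraries. Gzma, a tryptase-like granzyme, was higher with EPZ-5676 in each animal, with no overlap. Gzma differed on the log2 scale by 1.03 ± 0.11 (SE; adjusted p = 0.00068). Prf1 stood in WT1 to WT4 at 36.5, 31, 40 and 58.5 CPM with EPZ-5676 and at 18, 19.6, 21.7 and 29.2 CPM with DMSO. Prf1 encodes the pore-forming perforin, and WT4 had its highest level in both groups. For Prf1 the log2 fold change was 0.90 ± 0.07 (adjusted p = 0.00026). The level of Gzmb was 910.4, 849, 907 and 1049 CPM with EPZ-5676, against 974, 840.3, 1065 and 991 CPM with DMSO. Gzmb, the main apoptosis-inducing granzyme, overlapped completely between the groups. The Gzmb log2 fold change was -0.06 ± 0.06 (adjusted p = 0.53). Serpinb9, which protects killer cells from granzyme B, had 136 ± 19 CPM with EPZ-5676 and 76.6 ± 6.89 CPM with DMSO (log2 fold change 0.83 ± 0.06). Gzmc, of the granzyme cluster on the same chromosome as Gzmb, had 17.4 ± 5.02 CPM with EPZ-5676 and 8.45 ± 2.19 CPM with DMSO (log2 fold change 1.03 ± 0.13). Gzmd had 9.03 ± 6.29 CPM with EPZ-5676 and 2.7 ± 2.66 CPM with DMSO (log2 fold change 1.89 ± 0.29). Genes of this cluster are close copies, and reads can be split between them. A call was lost for Gzmd without the block (adjusted p = 0.0848).

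Secreted factors did not move together. Ifng had 1.49, 2.52, 3.03 and 2.34 CPM in the EPZ-5676 libraries of WT1 to WT4, against 0.583, 0.581, 1.25 and 0.524 CPM in the DMSO libraries. Ifng, the main effector cytokine of these cells, was low throughout, and WT3 had its highest level in both groups. Ifng differed on the log2 scale by 1.67 ± 0.26 (SE; adjusted p = 0.003). Xcl1, the chemokine that draws cross-presenting dendritic cells, had 6.51 ± 0.95 CPM with EPZ-5676 and 2.65 ± 0.396 CPM with DMSO (log2 fold change 1.30 ± 0.15). Ccl5 also rose, so that 3 of 11 cytokine and chemokine genes were higher and 3 lower. The lower ones were of the TNF family: Ltb had 192 ± 24.3 CPM with EPZ-5676 and 314 ± 27.5 CPM with DMSO (log2 fold change -0.72 ± 0.09), Tnfsf8, the ligand of CD30, had 157 ± 14.7 CPM with EPZ-5676 and 233 ± 26.7 CPM with DMSO (log2 fold change -0.57 ± 0.05), and Lta had a log2 fold change of -0.48. The same counts of 3 and 3 were found with each animal left out.

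Receptors of NK cells, and genes that signal through ITAM motifs, the tyrosine motifs that recruit Syk-family kinases, were called in both directions. In the NK receptor list 4 of 11 rose and 1 fell, with a median of 0.35, and 4 or 5 rose with any 1 animal left out. Next to Klrb1c, Fcgr3 stood in WT1 to WT4 at 5.63, 4.98, 5.23 and 5.36 CPM with EPZ-5676 and at 1.07, 0.498, 0.249 and 0.437 CPM with DMSO. Fcgr3 encodes the Fc receptor CD16, and the lowest EPZ-5676 value was above the highest DMSO value. For Fcgr3 the log2 fold change was 3.08 ± 0.28 (adjusted p = 0.00039). Cd244a, a SLAM-family receptor, had 21.7 ± 3.61 CPM with EPZ-5676 and 12.3 ± 2.11 CPM with DMSO (log2 fold change 0.82 ± 0.11). Klrd1, the CD94 chain, was the member that fell, with 292 ± 34.5 CPM with EPZ-5676 and 379.9 ± 47.3 CPM with DMSO (log2 fold change -0.38 ± 0.05). Of 12 ITAM adaptors and kinases, 5 rose and 3 fell, and 4, 4, 6 and 4 rose and 1, 2, 5 and 0 fell without WT1 to WT4. The level of Syk was 7.23, 7.39, 7.53 and 8.87 CPM with EPZ-5676, against 1.65, 1.25, 1.5 and 1.83 CPM with DMSO. Syk is the kinase that B and myeloid cells use where T cells use Zap70, and its groups were far apart. The Syk log2 fold change was 2.30 ± 0.15 (adjusted p = 0.00014). Fcer1g, the Fc receptor gamma chain, had 4 ± 0.729 CPM with EPZ-5676 and 1.48 ± 0.539 CPM with DMSO (log2 fold change 1.42 ± 0.22). Lyn, a Src-family kinase, had 9.61 ± 1.62 CPM with EPZ-5676 and 4.37 ± 1.24 CPM with DMSO (log2 fold change 1.15 ± 0.12). The 3 that fell were Cd3d, Cd247 and Hcst. Hcst, the adaptor DAP10, is counted in this list though it carries no ITAM, and its log2 fold change was -0.22 (adjusted p = 0.018). In a list of 12 NK cell markers, 4 of 6 tested rose and none fell. The summed level was 420 to 528 CPM with EPZ-5676 and 240 to 316 CPM with DMSO. Most of it was Eomes (203 to 248 CPM with EPZ-5676 and 122 to 165 CPM with DMSO) and Gzma (135 to 218 and 68.5 to 118 CPM), which the lists above also hold. Itga2 (log2 fold change 0.02) and Tyrobp (adjusted p = 0.13) were not called. Whether a change in the number of such cells took part in these values was not tested. The test was no longer passed for Cd3d without WT4, for Cd247 without WT1 or WT4, for Hcst without WT1, WT2, WT4 or the block (adjusted p between 0.0691 and 0.111).

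Receptors for cytokines and chemokines moved in both directions. Of 24 cytokine receptors, 6 rose and 7 fell (4, 5, 11 and 3 and 4, 6, 10 and 4 without WT1, WT2, WT3 and WT4). Kit had the smallest p. Il12rb1, a chain of the IL-12 receptor, had 118 ± 17 CPM with EPZ-5676 and 73.1 ± 5.87 CPM with DMSO (log2 fold change 0.68 ± 0.06), and Il1rl1, the IL-33 receptor ST2, had 2.75 ± 0.956 CPM with EPZ-5676 and 0.74 ± 0.415 CPM with DMSO (log2 fold change 1.83 ± 0.27). Il2rb, shared by the receptors for IL-2 and IL-15, had 1157 ± 78.4 CPM with EPZ-5676 and 929 ± 107 CPM with DMSO (log2 fold change 0.32 ± 0.06). Il2ra, the alpha chain of the IL-2 receptor, had 229.6 ± 13.3 CPM with EPZ-5676 and 346 ± 28.3 CPM with DMSO (log2 fold change -0.59 ± 0.05), and Il6ra had 74 ± 11.5 CPM with EPZ-5676 and 118 ± 26.5 CPM with DMSO (log2 fold change -0.66 ± 0.08). Of 13 chemokine and lipid receptors, 6 rose and 4 fell. Ccr2, a receptor for inflammatory chemokines, had 561 ± 47.2 CPM with EPZ-5676 and 356 ± 43.7 CPM with DMSO (log2 fold change 0.66 ± 0.05) and Cx3cr1, a marker of terminal effectors, had 11.4 ± 1.2 CPM with EPZ-5676 and 4.24 ± 0.723 CPM with DMSO (log2 fold change 1.44 ± 0.12). The lower ones, beside Ccr7, were S1pr4, S1pr1 and Gpr183, which position cells within and at the exit of lymphoid tissue; Gpr183 had 8.66 ± 0.732 CPM with EPZ-5676 and 12.9 ± 2.1 CPM with DMSO (log2 fold change -0.57 ± 0.12, adjusted p = 0.013). The 4 lower calls numbered 1, 4, 6 and 1 with WT1 to WT4 left out. With 1 animal or the block left out, calls were lost for Il2rb without WT4, for S1pr4 and Gpr183 without WT1 or WT4, for S1pr1 without WT1, WT4 or the block (adjusted p between 0.0622 and 0.101).

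Integrins were likewise divided, with 5 of 21 adhesion genes higher (23.8%, against 14.7% of all genes) and 4 lower (19.0%, against 11.2%). Leaving out WT1 to WT4 in turn gave 5, 4, 6 and 3 higher and 2, 4, 7 and 3 lower. Itga1, the collagen-binding CD49a, had 2.82 ± 1.09 CPM with EPZ-5676 and 0.294 ± 0.176 CPM with DMSO (log2 fold change 3.21 ± 0.29), and Cd9, a tetraspanin, had 41.5 ± 4.71 CPM with EPZ-5676 and 18.5 ± 2.83 CPM with DMSO (log2 fold change 1.16 ± 0.08). Itgb1, the shared beta chain, had 409.9 ± 23.9 CPM with EPZ-5676 and 284 ± 16.3 CPM with DMSO (log2 fold change 0.53 ± 0.05). Itgb7, the partner chain of CD103, had 547 ± 39 CPM with EPZ-5676 and 672 ± 15.7 CPM with DMSO (log2 fold change -0.30 ± 0.05). Of 17 inhibitory and exhaustion genes, 4 rose and 5 fell, with a median of 0.05, and 2, 4, 4 and 3 rose without WT1 to WT4. Ctla4 had 43.1, 37.8, 53 and 27.1 CPM in the EPZ-5676 libraries of WT1 to WT4, against 108, 110.5, 102 and 69.1 CPM in the DMSO libraries. Ctla4, an inhibitory receptor that competes with CD28, fell in each animal. Ctla4 differed on the log2 scale by -1.29 ± 0.09 (SE; adjusted p = 0.00018). Btla had 41.6 ± 2.28 CPM with EPZ-5676 and 74.7 ± 9.13 CPM with DMSO (log2 fold change -0.84 ± 0.07), whereas Cd160 had 84.9 ± 8.86 CPM with EPZ-5676 and 63.6 ± 10.7 CPM with DMSO (log2 fold change 0.43 ± 0.06). Pdcd1, which encodes PD-1, was near its detection floor at 0.748 ± 0.13 CPM with EPZ-5676 and 0.721 ± 0.217 CPM with DMSO and did not pass the test (log2 fold change 0.03 ± 0.30, adjusted p = 0.99). The 5 lower calls of this list numbered 2, 4, 5 and 3 without WT1 to WT4. Of 18 costimulation and TNF receptor genes, 2 rose (11.1%, against 14.7% of all genes) and 4 fell (22.2%, against 11.2%). Tnfrsf9, the receptor 4-1BB, had 117 ± 20 CPM with EPZ-5676 and 79.4 ± 9.52 CPM with DMSO (log2 fold change 0.55 ± 0.08), and Slamf1 had 10.1 ± 0.771 CPM with EPZ-5676 and 17 ± 2.23 CPM with DMSO (log2 fold change -0.74 ± 0.09). The lower calls numbered 2, 3, 8 and 2 without WT1 to WT4. Calls that did not hold when an animal or the block was left out were those for Itgb7 without WT1 (adjusted p = 0.0574).

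Lists of signalling targets differed in their balance of higher and lower calls. Of 14 MAPK feedback genes, 7 rose and 0 fell, with a median of 0.29, and the same count of 7 was found with each animal left out. Spry4, an inhibitor of receptor tyrosine kinase signalling, had 14.2 ± 3.68 CPM with EPZ-5676 and 6.68 ± 2.32 CPM with DMSO (log2 fold change 1.11 ± 0.13). Spred2 had 45.5 ± 5.56 CPM with EPZ-5676 and 31 ± 4 CPM with DMSO (log2 fold change 0.56 ± 0.06). Spry2 had 10.9 ± 1.23 CPM with EPZ-5676 and 5.43 ± 0.762 CPM with DMSO (log2 fold change 0.99 ± 0.14). Of 17 immediate early genes, 7 rose and 1 fell, while 5, 5, 7 and 5 rose and 0, 0, 5 and 0 fell without WT1 to WT4. Fos had 6.82 ± 1.27 CPM with EPZ-5676 and 3.41 ± 0.808 CPM with DMSO (log2 fold change 1.02 ± 0.16) and Nr4a1, a gene of recent antigen receptor signalling, had 5.75 ± 1.41 CPM with EPZ-5676 and 3.27 ± 0.759 CPM with DMSO (log2 fold change 0.80 ± 0.13). Junb fell, with 90.8 ± 13.4 CPM with EPZ-5676 and 118 ± 23.3 CPM with DMSO (log2 fold change -0.37 ± 0.12, adjusted p = 0.049). NF-kB genes leaned the other way, with 8 of 17 lower and 1 higher and a median of -0.19. Nfkbia, the inhibitor that NF-kB induces, had 32 ± 3.42 CPM with EPZ-5676 and 43.6 ± 5.84 CPM with DMSO (log2 fold change -0.44 ± 0.10, adjusted p = 0.016). Tnfaip3, the ubiquitin editor A20, had 32.4 ± 5.11 CPM with EPZ-5676 and 42.1 ± 3.84 CPM with DMSO (log2 fold change -0.38 ± 0.09, adjusted p = 0.016). The 8 lower calls numbered 2, 4, 10 and 1 without WT1, WT2, WT3 and WT4. Of 10 STAT feedback genes, 2 rose and 4 fell, and 2, 3, 6 and 2 fell without WT1 to WT4. Socs3, an inhibitor of JAK kinases, had 36.6 ± 3.75 CPM with EPZ-5676 and 48.6 ± 5.73 CPM with DMSO (log2 fold change -0.41 ± 0.10, adjusted p = 0.021), and Pim3 had 41 ± 7.47 CPM with EPZ-5676 and 29.7 ± 4.16 CPM with DMSO (log2 fold change 0.47 ± 0.08). Left-out animals or a missing block ended the call for Junb without WT1, WT2, WT4 or the block, for Nfkbia and Socs3 without WT1, WT2 or WT4, for Tnfaip3 without WT2 or WT4 (adjusted p between 0.0525 and 0.222). Junb also lost its call with thinned counts and a mean of at least 10 CPM (adjusted p between 0.0594 and 0.0672).

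Genes of DNA replication had the highest count of called members among the 48 lists. Of 34 tested, 25 rose and 1 fell, with a median of 0.40, and 15, 18, 30 and 14 rose without WT1, WT2, WT3 and WT4. Mcm2 stood in WT1 to WT4 at 209, 190.4, 160.3 and 227 CPM with EPZ-5676 and at 135, 107, 116 and 141 CPM with DMSO. Mcm2, a subunit of the replicative helicase, was higher with EPZ-5676 in each animal. For Mcm2 the log2 fold change was 0.65 ± 0.07 (adjusted p = 0.00057). Mcm7 had 228 ± 28.4 CPM with EPZ-5676 and 175 ± 23.8 CPM with DMSO (log2 fold change 0.39 ± 0.05) and Mcm6 had 349 ± 32.9 CPM with EPZ-5676 and 265 ± 18.2 CPM with DMSO (log2 fold change 0.40 ± 0.06). Rfc5, of the clamp loader, had 70.9 ± 8 CPM with EPZ-5676 and 51.9 ± 6.53 CPM with DMSO (log2 fold change 0.45 ± 0.06). The member that fell was E2f2, with 129 ± 11 CPM with EPZ-5676 and 161 ± 16.3 CPM with DMSO (log2 fold change -0.32 ± 0.05). Mitotic genes moved less: 5 of 26 rose (19.2%, against 14.7% of all genes) and 0 fell. Their median was 0.18, with a positive estimate in 26 of 26. The 5 higher calls became 0, 1, 14 and 2 without WT1, WT2, WT3 and WT4. Cdk1, the mitotic kinase, had 139 ± 11 CPM with EPZ-5676 and 114 ± 6.66 CPM with DMSO (log2 fold change 0.29 ± 0.07, adjusted p = 0.016). Of 13 CDK inhibitors and D cyclins, 7 rose and 1 fell. Cdkn2b, which encodes p15, had 10.9 ± 2.25 CPM with EPZ-5676 and 5.85 ± 0.918 CPM with DMSO (log2 fold change 0.90 ± 0.11), whereas Cdkn1b, which encodes p27, had 120.5 ± 22.7 CPM with EPZ-5676 and 164 ± 20.6 CPM with DMSO (log2 fold change -0.46 ± 0.08). The 7 higher calls numbered 2, 3, 9 and 1 without WT1 to WT4. Among 21 p53 and apoptosis genes, 3 rose (14.3%, against 14.7% of all genes) and 7 fell (33.3%, against 11.2%). With WT1 to WT4 left out, 2, 2, 4 and 1 rose and 3, 5, 9 and 3 fell. Bbc3, the BH3-only protein PUMA, had 42.5 ± 11.7 CPM with EPZ-5676 and 73.7 ± 10.1 CPM with DMSO (log2 fold change -0.82 ± 0.13), and Bcl2l11, which encodes BIM, had 241 ± 28.6 CPM with EPZ-5676 and 298 ± 23 CPM with DMSO (log2 fold change -0.31 ± 0.06). A call was lost for Cdk1 without WT1, WT2 or WT4, for Bcl2l11 without WT1 or WT4 (adjusted p between 0.0531 and 0.0912).

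Lists of glycolysis, cholesterol synthesis, fatty acid and nucleotide genes held more higher than lower calls. Glycolysis had 12 of 20 genes higher and 1 lower, with a median of 0.28, and 10, 11, 13 and 9 higher without WT1 to WT4. The level of Eno1 was 1065, 927, 932 and 1263 CPM with EPZ-5676, against 774, 637, 626 and 823 CPM with DMSO. Eno1, enolase, rose in each animal without overlap. The Eno1 log2 fold change was 0.55 ± 0.05 (adjusted p = 0.00039). Tpi1, triosephosphate isomerase, had 269 ± 30.1 CPM with EPZ-5676 and 161 ± 21.7 CPM with DMSO (log2 fold change 0.75 ± 0.05), and Slc16a3, the lactate exporter, had 35.3 ± 7.16 CPM with EPZ-5676 and 21.7 ± 5.41 CPM with DMSO (log2 fold change 0.71 ± 0.07). The gene that fell was Pdk1, a kinase that restrains pyruvate dehydrogenase, with 211 ± 16.5 CPM with EPZ-5676 and 278 ± 29.2 CPM with DMSO (log2 fold change -0.40 ± 0.07). Cholesterol synthesis and uptake had 16 of 25 higher and 1 lower, with a median of 0.23, and 11, 10, 18 and 10 higher without WT1 to WT4. Hmgcs1, the synthase at the pathway's entry, had 230.2 ± 30.2 CPM with EPZ-5676 and 166 ± 18.4 CPM with DMSO (log2 fold change 0.47 ± 0.06). Sqle, squalene epoxidase, had 90.2 ± 8.27 CPM with EPZ-5676 and 68.3 ± 9.37 CPM with DMSO (log2 fold change 0.40 ± 0.05). Srebf2, the transcription factor of the pathway, was the gene that fell, at a log2 fold change of -0.20 (adjusted p = 0.027). In the list of cholesterol efflux, 3 of 9 fell and none rose, among them Abcg1, an exporter, with 51.2 ± 5.6 CPM with EPZ-5676 and 77.3 ± 6.08 CPM with DMSO (log2 fold change -0.60 ± 0.09). Fatty acid genes had 10 of 22 higher and 1 lower, and 5, 5, 12 and 5 higher without WT1 to WT4. Scd1, the stearoyl desaturase, had 14.9 ± 3.17 CPM with EPZ-5676 and 5.71 ± 1.41 CPM with DMSO (log2 fold change 1.39 ± 0.10), and Fads2 had 59.4 ± 11 CPM with EPZ-5676 and 28.8 ± 8.55 CPM with DMSO (log2 fold change 1.06 ± 0.10). Nucleotide synthesis and the pentose phosphate pathway had 11 of 19 higher and 0 lower, 6, 6, 12 and 4 without WT1 to WT4. Gart, of purine synthesis, had 156 ± 16.9 CPM with EPZ-5676 and 109 ± 5.17 CPM with DMSO (log2 fold change 0.52 ± 0.06). The test was no longer passed for Srebf2 without WT1, WT2, WT4 or the block (adjusted p between 0.0998 and 0.161).

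Genes of ribosome biogenesis rose, and no ribosomal protein gene was called. Of 21 biogenesis genes, 12 rose and 0 fell, the estimate was positive in 21, and the median was 0.26; 7, 12, 15 and 7 rose without WT1 to WT4. Nolc1, a nucleolar chaperone, had 151 ± 21.9 CPM with EPZ-5676 and 108 ± 8.01 CPM with DMSO (log2 fold change 0.48 ± 0.07), and Dkc1, the pseudouridine synthase dyskerin, had 161 ± 7.27 CPM with EPZ-5676 and 120.4 ± 7.86 CPM with DMSO (log2 fold change 0.42 ± 0.06). Of 24 ribosomal protein genes edgeR and DESeq2 called 0 in either direction, with 7 lower at an unadjusted p under 0.05 by edgeR, and a median of -0.09. Without WT3, 18 of the 24 fell; the list's median was 0.05 in WT3, and -0.07, -0.19 and -0.13 in WT1, WT2 and WT4. The share of counts in ribosomal protein genes was 9.73% with EPZ-5676 and 9.33% with DMSO in WT3. Of 26 nuclear genes of oxidative phosphorylation, 3 rose (11.5%, against 14.7% of all genes) and none fell, and 1, 1, 3 and 1 rose without WT1 to WT4. Cycs, cytochrome c, had 41.3 ± 2.99 CPM with EPZ-5676 and 31.7 ± 1.66 CPM with DMSO (log2 fold change 0.38 ± 0.06). None of 10 genes of the mitochondrial genome was called by edgeR or DESeq2, and 0 reached an unadjusted p under 0.05. Their median went in opposite directions between animals, at -0.50, 0.18, -0.65 and 0.34 in WT1 to WT4. Of 18 citric acid cycle genes 4 rose (22.2%, against 14.7% of all genes), Dlst with the smallest p at 0.27 on the log2 scale. With WT1 to WT4 left out 0, 2, 4 and 0 rose. With 1 animal or the block left out, calls were lost for Dlst without WT1 or WT4 (adjusted p between 0.0523 and 0.0616).

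Chaperones rose, with 11 of 19 higher, 0 lower and a median of 0.28, and 10, 10, 12 and 8 higher without WT1 to WT4. Hspa5, the chaperone BiP of the endoplasmic reticulum, had 332 ± 39.1 CPM with EPZ-5676 and 261 ± 27.7 CPM with DMSO (log2 fold change 0.35 ± 0.05), and Hspd1, of mitochondria, had 255 ± 21.4 CPM with EPZ-5676 and 185 ± 11.4 CPM with DMSO (log2 fold change 0.46 ± 0.05). The integrated stress response was mixed, with 4 of 16 higher (25.0%, against 14.7% of all genes) and 2 lower (12.5%, against 11.2%). Without WT1 to WT4, 3, 4, 6 and 4 rose and 1, 2, 3 and 1 fell. Slc7a5, an amino acid transporter, had 239 ± 36.1 CPM with EPZ-5676 and 176 ± 26 CPM with DMSO (log2 fold change 0.44 ± 0.05), while Ddit3, which encodes CHOP, had 16.9 ± 2.12 CPM with EPZ-5676 and 23.8 ± 2.16 CPM with DMSO (log2 fold change -0.48 ± 0.08). Of 32 interferon-stimulated genes, 10 rose and 1 fell, with a median of 0.17; 3, 6, 12 and 4 rose without WT1 to WT4. Irgm1, an immunity-related GTPase, had 88.8 ± 6.85 CPM with EPZ-5676 and 68.2 ± 2.13 CPM with DMSO (log2 fold change 0.37 ± 0.06), and Oasl2 had 3.49 ± 0.41 CPM with EPZ-5676 and 1.46 ± 0.529 CPM with DMSO (log2 fold change 1.33 ± 0.27). The Ifi200 DNA sensors leaned down, with 4 of 9 lower and 1 higher. Ifi214 had 28.8 ± 5.23 CPM with EPZ-5676 and 40.3 ± 5.11 CPM with DMSO (log2 fold change -0.49 ± 0.07), and the 4 lower calls numbered 4, 4, 7 and 2 without WT1 to WT4. Of 16 genes of MHC class I, Erap1, which trims peptides, rose and H2-T23 fell, at log2 fold changes of 0.16 (adjusted p = 0.047) and -0.26 (adjusted p = 0.04). These are 6.25% in each direction, against 14.7% and 11.2% of all genes, and 0, 0, 2 and 0 rose and 0, 0, 4 and 0 fell without WT1 to WT4. Calls that did not hold when an animal or the block was left out were those for Oasl2 without WT1, for Erap1 without WT1, WT2, WT4 or the block, for H2-T23 without WT1, WT2 or WT4 (adjusted p between 0.0679 and 0.21). Erap1 also lost its call with DESeq2, RLE factors, thinned counts and no low-count filter (adjusted p between 0.0502 and 0.169). H2-T23 also lost its call with a mean of at least 10 CPM (adjusted p = 0.0561).

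**Figure D4:**
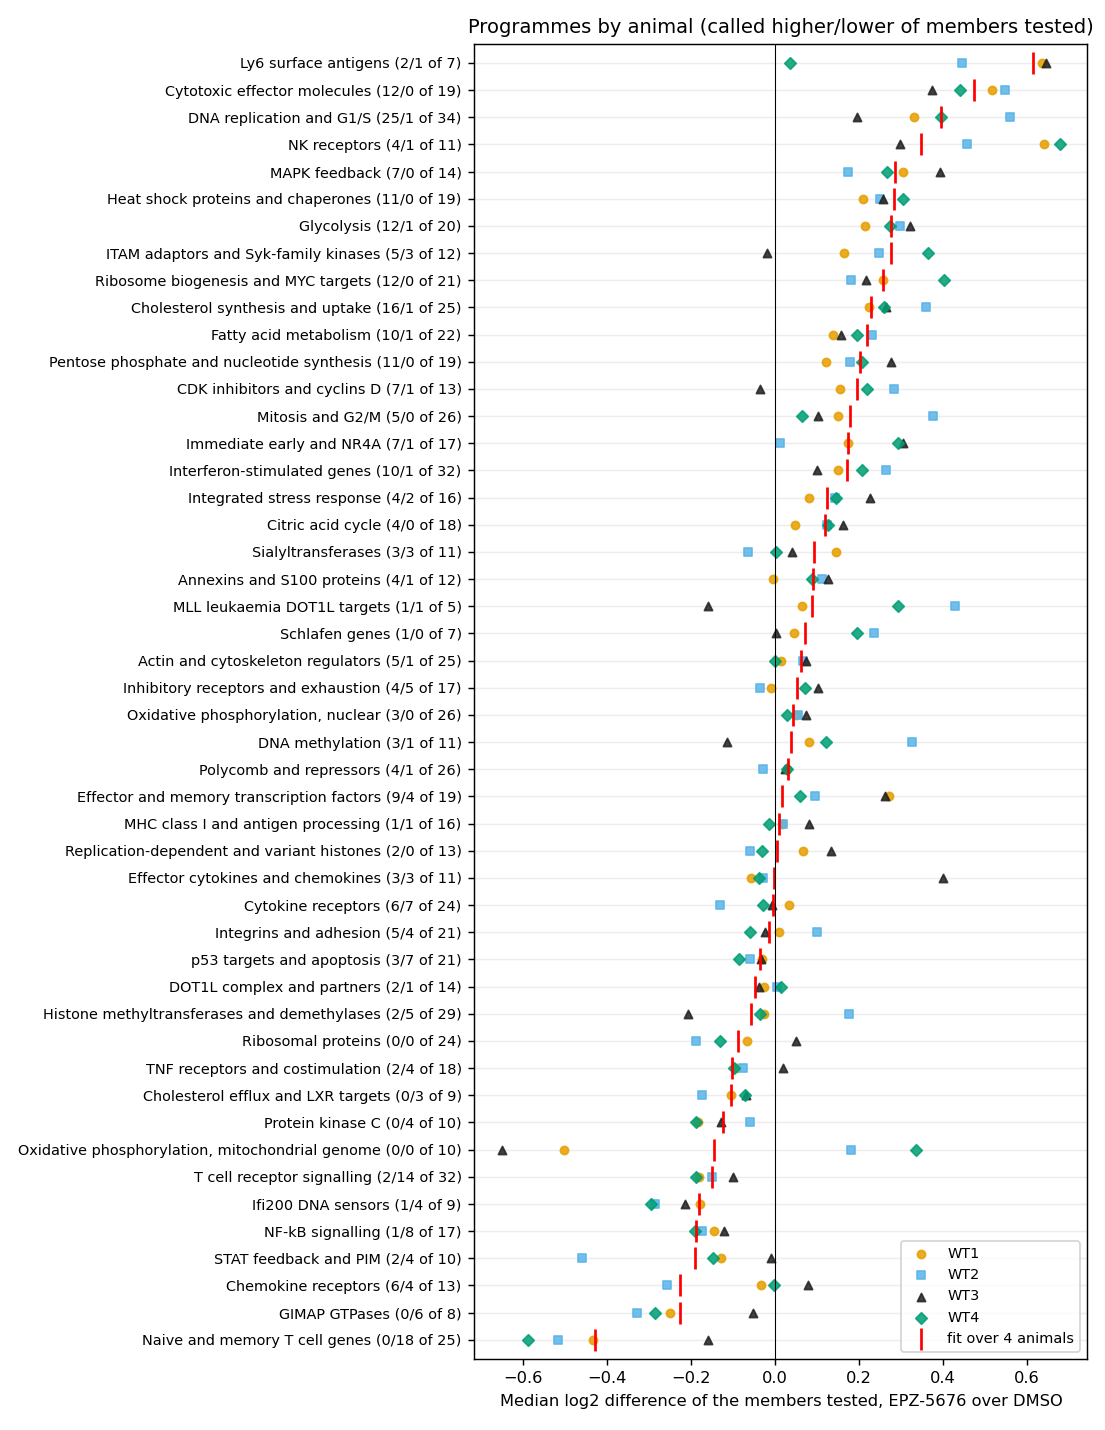
Each row is 1 of 48 gene lists, ordered by the median log2 fold change of its tested members over the 4 animals (red bar), with the median log2 CPM difference of each animal, EPZ-5676 minus DMSO, as points (prior count of 2) and the members called higher and lower of those tested in brackets. Naive and memory genes lie lowest at -0.43 and DNA replication and cytotoxic genes among the highest at 0.40 and 0.47.

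Chromatin genes were called in both directions, and several of their lists had shares near those over all genes, 14.7% higher and 11.2% lower. Of 29 histone methyltransferases and demethylases, 2 rose and 5 fell (1, 3, 5 and 1 and 1, 3, 7 and 1 without WT1 to WT4). Nsd3, a methyltransferase for another lysine of histone H3, had 322 ± 17 CPM with EPZ-5676 and 434 ± 46.5 CPM with DMSO (log2 fold change -0.43 ± 0.06). Kdm6b, which removes the Polycomb mark, had 36.1 ± 4.66 CPM with EPZ-5676 and 27.3 ± 2.24 CPM with DMSO (log2 fold change 0.40 ± 0.06). Of 26 Polycomb genes, 4 rose (15.4%) and 1 fell (3.85%), while 2, 2, 5 and 1 rose and 1, 1, 4 and 1 fell without WT1 to WT4. Phf19 had 51.3 ± 4.95 CPM with EPZ-5676 and 38.4 ± 3.2 CPM with DMSO (log2 fold change 0.42 ± 0.06), and Ezh1 had 83.3 ± 6.79 CPM with EPZ-5676 and 106 ± 7.99 CPM with DMSO (log2 fold change -0.35 ± 0.05). In the DNA methylation list 3 of 11 rose and 1 fell, and 2, 2, 5 and 2 rose and 0, 1, 2 and 0 fell without WT1 to WT4. Tet1, a methylcytosine dioxygenase, had 12 ± 1.97 CPM with EPZ-5676 and 5.37 ± 0.836 CPM with DMSO (log2 fold change 1.16 ± 0.12), and Tet3 had 146 ± 21 CPM with EPZ-5676 and 195 ± 36 CPM with DMSO (log2 fold change -0.40 ± 0.10, adjusted p = 0.021). H1f0, a linker histone of resting cells, had 59.6 ± 15 CPM with EPZ-5676 and 35.8 ± 5.47 CPM with DMSO (log2 fold change 0.71 ± 0.07), 1 of 2 higher among 13 histone genes, of which 1, 2, 2 and 1 rose without WT1 to WT4. Of 5 DOT1L targets known from MLL leukaemia, Zeb2 rose with 4.64 ± 0.336 CPM with EPZ-5676 and 2.26 ± 0.505 CPM with DMSO (log2 fold change 1.05 ± 0.17) and Jmjd1c fell with 129 ± 15.7 CPM with EPZ-5676 and 173 ± 39.1 CPM with DMSO (log2 fold change -0.41 ± 0.12, adjusted p = 0.043). Hoxa7, Hoxa9, Hoxa10, Meis1 and Mef2c of that list did not have enough counts to be tested. Left-out animals or a missing block ended the call for Tet3 without WT1 or WT4, for Jmjd1c without WT1, WT4 or the block (adjusted p between 0.0531 and 0.175). Jmjd1c also lost its call with a mean of at least 10 CPM (adjusted p = 0.0523).

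A few families held both directions. St6gal1, which caps surface glycans with sialic acid, had 70 ± 10.9 CPM with EPZ-5676 and 173 ± 50.9 CPM with DMSO (log2 fold change -1.27 ± 0.11), and 3 of 11 sialyltransferases rose and 3 fell. Without WT1 to WT4, 1, 1, 4 and 0 rose and 2, 2, 5 and 2 fell. St6galnac4 was among those that rose, with 85.2 ± 7.47 CPM with EPZ-5676 and 66.5 ± 1.73 CPM with DMSO (log2 fold change 0.35 ± 0.07). Ly6a and Ly6c2, surface antigens of activated T cells, were 2 of 7 Ly6 genes that rose, Ly6c2 with 199 ± 36.6 CPM with EPZ-5676 and 119 ± 27.3 CPM with DMSO (log2 fold change 0.76 ± 0.07). Anxa2 rose next to Anxa1, with 569 ± 32.3 CPM with EPZ-5676 and 391 ± 38.9 CPM with DMSO (log2 fold change 0.55 ± 0.05), and in that list 4 of 12 rose and 1 fell, against 2, 2, 4 and 2 higher and 0, 0, 3 and 0 lower without WT1 to WT4. Of 25 actin regulators, 5 rose (20%, against 14.7% of all genes) and 1 fell (4.0%, against 11.2%), and 3, 3, 9 and 2 rose and 1, 1, 5 and 1 fell without WT1 to WT4. Vcl, the focal adhesion protein vinculin, had 26.2 ± 3.3 CPM with EPZ-5676 and 17.4 ± 3.14 CPM with DMSO (log2 fold change 0.60 ± 0.10), and Actn1 had 72.1 ± 3.63 CPM with EPZ-5676 and 119 ± 12 CPM with DMSO (log2 fold change -0.72 ± 0.06). Slfn5 was the 1 of 7 Schlafen genes that was called (14.3%, against 14.7% of all genes called higher). Its level was 18.7 ± 3.6 CPM with EPZ-5676 and 9.7 ± 1.56 CPM with DMSO (log2 fold change 0.93 ± 0.08). A call was lost for St6galnac4 without WT4 (adjusted p = 0.0535).

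Ighm, the immunoglobulin mu constant gene, was among the 6 genes named for the largest falls in CPM. Ighm had 475, 548, 546 and 419.6 CPM in the EPZ-5676 libraries of WT1 to WT4, against 1107, 1290.1, 1050.2 and 1036 CPM in the DMSO libraries. Genes were named for such falls only where the groups did not overlap. Ighm differed on the log2 scale by -1.18 ± 0.07 (SE; adjusted p = 9.7e-05). Of B cell markers, Cd79a had 5 counts over the 4 EPZ-5676 libraries and 6 over the 4 DMSO libraries, and Ms4a1 had none. Other members of that list were present. Cd79b had 622 counts with EPZ-5676 and 513 with DMSO and was not called (log2 fold change -0.06, adjusted p = 0.73). Ighd fell with a log2 fold change of -1.54, and Cd22, which was not tested, had 59 counts with EPZ-5676 and 30 with DMSO. Txnip, a thioredoxin-binding arrestin that responds to glucose, had 407 ± 83.2 CPM with EPZ-5676 and 706 ± 104 CPM with DMSO (log2 fold change -0.81 ± 0.08). Ablim1, an actin-binding LIM protein, had 924 ± 49.7 CPM with EPZ-5676 and 1166 ± 50.2 CPM with DMSO (log2 fold change -0.34 ± 0.06). Mbnl1, a splicing regulator, was among the 6 largest gains in CPM with 2097 ± 99.5 CPM with EPZ-5676 and 1828 ± 86.1 CPM with DMSO (log2 fold change 0.20 ± 0.04, adjusted p = 0.014). The test was no longer passed for Ablim1 without WT4, for Mbnl1 without WT1, WT2 or WT4 (adjusted p between 0.0509 and 0.0986).

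Antisense and lincRNA genes were called lower more often than higher. Of 217 genes that the table types as antisense, 2 rose (0.922%) and 39 fell (18.0%), with a median log2 fold change of -0.26. Of 10957 protein coding genes tested, 16.2% rose and 11.3% fell. The median was negative in each animal, at -0.18, -0.19, -0.37 and -0.32 in WT1 to WT4, and 8 rose and 41 fell without WT3. Of 241 lincRNA genes, 8 rose (3.32%) and 35 fell (14.5%), with a median of -0.20 that became -0.09 without WT3. Of genes with a mean of at least 1 and under 10 CPM in the WT libraries, 0 of 123 antisense genes rose and 24 fell (19.5%), while 21.8% of 2182 coding genes rose and 6.05% fell. GENCODE M21, whose coordinates match those of 98.8% of the genes in the table, placed a tested coding gene on the other strand for 179 of the antisense genes. The median log2 fold change was -0.27 in these antisense genes and -0.02 in their coding partners. Across these 179 pairs, measured in the same libraries, Pearson's r was 0.3, and of 34 antisense genes that fell, 14 had a partner that fell and 0 a partner that rose. The kit keeps strand, but the strand setting of the counting is not given in the sources used here, so reads of a gene and of its antisense partner may not be told apart. A pair of such genes, picked after their values were seen, show the size: Gm30054 (antisense) had 15.4 ± 1.76 CPM with EPZ-5676 and 24.8 ± 3.61 CPM with DMSO (log2 fold change -0.69 ± 0.07), and Gm17767 (lincRNA) had 53.5 ± 13.5 CPM with EPZ-5676 and 126 ± 8.91 CPM with DMSO (log2 fold change -1.26 ± 0.09).

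Increases of at least 2-fold lay mostly among genes of low level. When all genes tested were split into 5 equal bins by their level in the WT libraries, which the comparison did not use, 14.1% of the lowest bin (under 3.53 CPM) and 0.041% of the highest (over 95.9 CPM) rose by at least 2-fold. Falls of at least 2-fold made up 1.68% and 0.287% of these bins. Counting any size, 18.6% of the lowest bin rose and 4.1% fell, against 14.4% and 15.5% of the highest. A gene with few counts in 1 group passes the filter only through the group in which it is higher.

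**Figure D5:**
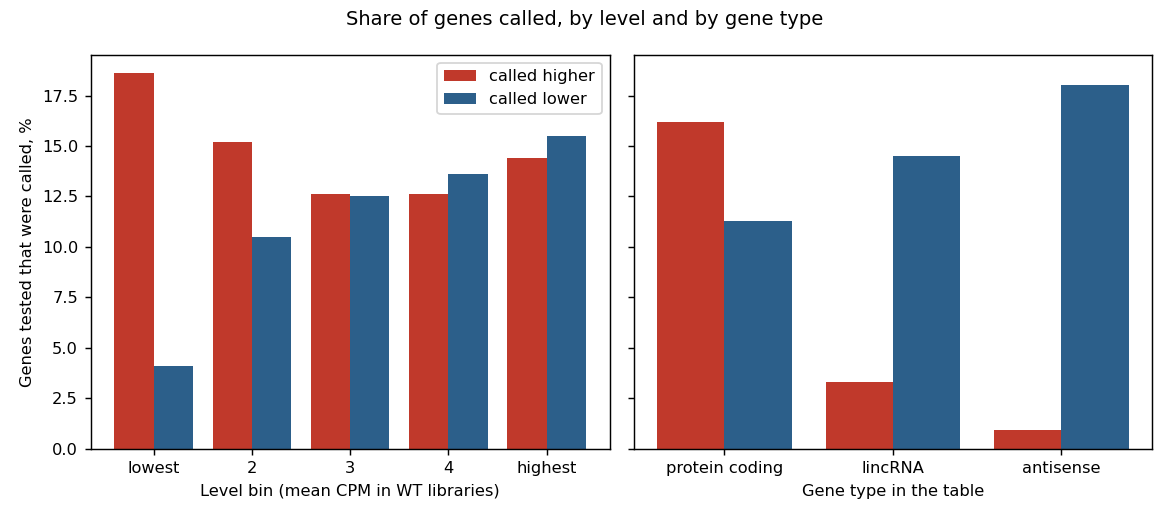
Bars give the percentage of genes tested that were called higher and lower with EPZ-5676, on the left by 5 equal bins of the mean CPM in the WT libraries and on the right by gene type. In the lowest bin 18.6% rose and 4.1% fell, and among antisense genes 0.922% rose and 18.0% fell.

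The animals agreed to different degrees. When genes were called in 3 animals and read in the fourth, 99.8% of the higher and 98.5% of the lower calls kept their direction in WT1, 98.9% and 92.6% in WT2, and 99.8% and 99.6% in WT4, whereas in WT3 80.0% and 74.9% did. Of all genes, 49.9% to 52.0% went up in a given animal. The sets compared were unlike. The set called without WT3 held 2399 higher and 2255 lower genes, and the other sets 828 to 1249 higher and 499 to 931 lower. In those other sets the median log2 fold change in the 3 calling animals was 0.61 to 0.75 and -0.48 to -0.41. The median log2 difference in WT3 of the genes called higher in the other 3 was 0.28, against 0.38 in those 3, and of the genes called lower it was -0.15, against -0.29. The treatment effect in the 2 males was set against that in the 2 females by an interaction term. edgeR called 0 of 12208 genes, with 484 at an unadjusted p under 0.05. With 2 animals of each sex this does not show that the sexes responded alike.

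The KO and WT libraries share no library with the EPZ-5676 comparison, but they differ from it in genotype and treatment, and the KO effect is drawn from labels: Dot1l counts over the whole gene were not lower in the libraries labelled KO (log2 fold change 0.58), and counts over a whole gene do not check a deletion of part of it. Of 3159 genes called with EPZ-5676 and tested in both, 2036 were called in the same direction in KO against WT and 49 in the opposite direction. The 2036 were 64.5% of the EPZ-5676 calls and 45.0% of the 4527 calls in KO against WT among genes tested in both. Of all 12143 genes tested in both, 37.3% were called in KO against WT. The 2 effects were compared directly in 1 model over the 14 libraries, and 1348 of 12639 genes (10.7%) differed at an adjusted p under 0.05; the count was 857 without WT1 and 1792 without WT3 in the inhibitor arm, and 870 and 875 without KO replicate 1 and 2. Cd8a fell by 1.06 with EPZ-5676 and by 2.61 in KO on the log2 scale, and the difference of 1.55 passed the test (adjusted p = 1.7e-05). Prf1 rose by 0.90 with EPZ-5676 and by 3.57 in KO (adjusted p of the difference 8.0e-06). Klrb1c rose by 2.66 and 2.37, a difference that did not pass (adjusted p = 0.64). Myb and Tox were picked from genes called in opposite directions in the 2 experiments with a difference that passed the test. Myb, a factor of stem-like T cells, had 21.1 ± 4.05 CPM with EPZ-5676 and 38.5 ± 3.63 CPM with DMSO. Its log2 fold change was -0.87, against 0.61 in KO. Tox, a factor of exhausted cells, had -0.35 (adjusted p = 0.017) against 1.27. The adjusted p of the difference was 4.9e-05 for Myb and 5.8e-05 for Tox, and passing was a condition of the choice. With 1 animal or the block left out, calls were lost for Tox without WT1 (adjusted p = 0.102).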

How the data were processed

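RNA was extracted from 8-day cultures and libraries were made with a stranded mRNA kit, per the labels' protocols. The submitters' processing notes name TopHat2 2.1, Bowtie 1.1, HTSeq and the build mm10; neither the strand setting nor the annotation release is stated there. The deposited table holds raw read counts per gene made by the authors. A row with no gene name held 0 counts. The 8 libraries had 8139437 to 20586093 counts; the total limits the precision of low genes, and counting error is part of the fitted spread.

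Genes were kept by edgeR's filterByExpr (minimum count 10, minimum total 15), scaled by TMM and fitted with glmQLFit and glmQLFTest (edgeR 4.0.16, R 4.3.3), with animal as a block and treatment as the effect, and p-values were adjusted by Benjamini-Hochberg over all genes tested. CPM use the TMM-scaled totals. The pairing comes from the library names, which give the same animal, WT1 to WT4, to both treatments; both libraries of an animal carry the same labelled sex. Same-animal deviations correlated at 0.0324 to 0.554, in WT3 below the 0.137 found with another animal. Replicates are animals. The block removes differences in level between these 4, so the p-values weigh the treatment effect against the spread that remains within pairs. That spread is estimated with information shared over genes. No 2 libraries were copies of each other: chi-square per degree of freedom was 9.36 to 18.1 within groups. On simulated counts for the EPZ-5676 comparison (12080 genes), 68% of 100 genes changed 1.5-fold and 96% of 100 changed 2-fold were recovered, and 0.0589% of the unchanged genes were called.

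Named genes were taken by a rule, which began with genes fixed by name. Among called genes of at least 5 CPM it took the 10 largest changes, 8 smallest p-values and 6 largest CPM differences each way. These had to show no overlap and the same direction in all 4 animals. From each list it took up to 4 called genes each way. It also took 5 each way called with the block only, with the same direction in all 4 animals. The last were 8 genes called in opposite directions with EPZ-5676 and in KO. Their difference of effects had to pass the test. The members, the rule and the 48 lists were chosen with earlier results of these data known. No set test was run. DESeq2 1.42.0, RLE factors, other filters, thinned counts, a minimum fold of 1.5, a fit without the block and the omission of each animal were tried as alternatives. Promoter windows are RefSeq's (GRCm38.p6), and 80.7% of the coding genes tested had one. Motifs and CG were searched by script. Some genes that the rule names are not reported here.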

Additional observations from a re-analysis of the deposited data

Results flagged for a closer look

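Each of 171 named genes and each of 6 measures of library quality was looked at in the 4 libraries of each group for 1 library far from the other 3, taken as a gap to the nearest one, as a share of the whole range, above Dixon's critical value. Of 354 such groups of 4, 12 were found, while chance alone gives about 1 in 20. Ifng was 1.25 CPM in WT3 and 0.524 to 0.583 CPM in the other 3 DMSO libraries, a gap of 0.918 of the range. In the EPZ-5676 libraries Tgm2 stood at 17.2 CPM in WT4, against 11.8 to 12.1 CPM in the others (0.948 of the range). Slc28a2b had 11.1 CPM in the EPZ-5676 library of WT2, and the other 3 of that group had 13.3 to 13.6 CPM, with a gap of 0.888. Kit was 25.9 CPM in WT3 and 15.3 to 15.9 CPM in the other 3 DMSO libraries, a gap of 0.94 of the range. In the DMSO libraries Pdk1 stood at 322 CPM in WT2, against 261 to 266 CPM in the others (0.927 of the range). Nsd3 had 504 CPM in the DMSO library of WT3, and the other 3 of that group had 404 to 415 CPM, with a gap of 0.881. Nr4a1 was 7.87 CPM in WT4 and 4.97 to 5.09 CPM in the other 3 EPZ-5676 libraries, a gap of 0.957 of the range. In the EPZ-5676 libraries Itga1 stood at 4.44 CPM in WT4, against 2.13 to 2.51 CPM in the others (0.834 of the range). Rasgrp2 had 278 CPM in the EPZ-5676 library of WT1, and the other 3 of that group had 251 to 255 CPM, with a gap of 0.854. Cycs was 45.7 CPM in WT4 and 39.5 to 40.4 CPM in the other 3 EPZ-5676 libraries, a gap of 0.853 of the range. In the EPZ-5676 libraries St6gal1 stood at 86.3 CPM in WT2, against 64.5 to 64.6 CPM in the others (0.994 of the range). The number of genes with at least 1 CPM was 11780 in the EPZ-5676 library of WT2, and the other 3 of that group had 11620 to 11640, with a gap of 0.875.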

How the results depend on the processing

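With EPZ-5676 against DMSO, 1792 genes were higher and 1371 lower in the fit with the animal as a block, and 1449 and 1014 in the fit without the replicate block. A test against a minimum fold of 1.5 called 241 higher and 54 lower. A mean of at least 10 CPM left 1177 higher, since fewer genes were tested. Leaving out 1 animal in turn gave 839 to 2408 genes higher and 501 to 2256 lower. The difference between the EPZ-5676 and the KO effect was called for 1348 genes, for 961 without the block and for 857 to 1792 with 1 animal or replicate left out. DESeq2, RLE factors, thinning to the smallest total and no filter kept the counts within 1.5 times, and ended the calls of 6, 3, 6 and 3 named genes; the filter at 10 CPM ended those of 3. Of 171 named genes, 167 were called, and none of these turned its direction under 10 alternatives. Leaving out the block ended the call of 21, and omission of WT1, WT2, WT3 or WT4 ended that of 32, 16, 2 and 35. Dot1l gained a call without WT3. With 4 animals, changes of 1.5-fold were recovered in 68% of simulated cases. The simulation changed a far smaller share of genes than was called here and gave every gene the same dispersion. Its rate therefore need not hold for these data, and how often smaller changes were missed was not tested.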

Other observations

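The calls were also counted by gene span. Of the coding genes tested, the longest of 5 equal bins by span (over 65.5 kb) had 6.61% higher by at least 2-fold and 14.6% lower at any size, against 3.6% and 8.99% in the shortest bin (under 8.61 kb). The share called higher at any size was 16.7% in both. These are descriptions over genes, which are not independent replicates, and no test was run on them.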
